A study of Mus musculus with 24 samples.

Results

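The effect of ovalbumin (OVA) on the lung was compared between 2 groups of mice that had all inhaled diesel exhaust (DE) at 500 ug/m3, the lower of the doses used. Both groups were exposed for 4 h a day on 5 days. The OVA group also received 100 ug OVA over the 3 dosing days the labels name, and the control group received saline over the same number of days. The arrays were chosen by their titles alone, 4 for OVA and 4 for saline, which makes 8 of the 24 arrays in the series. The other 16 arrays, in 4 groups of 4, come from mice in filtered air or at 2000 ug/m3 with OVA or saline, and they enter here to estimate the spread of each probe set and as a comparison for the effect of OVA. RNA came from frozen whole lung and was hybridised to Affymetrix mouse arrays. The sources used here do not give the strain, age or sex of the mice or the route of dosing. They also leave unsaid whether each array is from its own mouse, so p-values measure the spread between these arrays, which may be partly technical. The small number of arrays limits the precision of every value.

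Ovalbumin is a chicken egg protein that serves as a model allergen in mice. Particles in diesel exhaust are known as adjuvants, which strengthen the immune response to an allergen given with them. In an established allergic airway response, T helper cells release Il4, Il5 and Il13, eosinophils enter the lung, airway epithelium makes the mucin Muc5ac and the chloride channel regulator Clca1, and macrophages and epithelium make chitinase-like and resistin-like proteins such as Chil3 and Retnla. The comparison asks which lung transcripts differ with OVA when exhaust is present in both groups.

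The arrays carried the RNA of lung in both groups. The surfactant genes Sftpc and Sftpb, the club cell secretoglobin Scgb1a1, the alveolar type 1 receptor Ager and the endothelial junction gene Cldn5 were among the strongest signals, and the weakest of them, Cldn5, had a mean at percentile 98.5 of all probe sets. Log2 signals of pairs among the 8 arrays correlated between 0.88 and 0.95. In whole tissue, fewer cells of a type and less RNA per cell cannot be told apart.

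Saline replicates 1 and 4 stood apart from the other 6 arrays before any gene was considered. The arrays carry separate control probe sets for the 3' and the 5' end of Gapdh, a glycolytic enzyme. Their log2 ratio is high when the signal is concentrated at the 3' end of the transcript, as in degraded or incompletely copied RNA. In OVA the ratio was -0.22, -0.15, -0.21 and -0.17 in replicates 1 to 4, and in saline it was 4.91, 0.36, 0.08 and 4.34. The groups did not overlap and differed by -2.61 (exact two-sided permutation test, n = 4 each, p = 0.0286, the smallest that 4 arrays against 4 can give, or 0.0429 adjusted over 3 array checks). The same ratio for actin was 0.15, 0.15, 0.44 and 0.30 in OVA and 3.85, 0.31, 0.12 and 3.19 in saline, so saline replicates 2 and 3 lay among the OVA arrays (difference -1.61, exact permutation p = 0.314). The probe set for B1, a repeat element found in many unspliced nuclear transcripts, had log2 signals of 11.41, 11.57, 11.64 and 11.94 in OVA and 13.83, 12.08, 12.30 and 13.68 in saline. Here the groups did not overlap even with saline replicates 2 and 3 (difference -1.33, exact permutation p = 0.0286, adjusted 0.0429). Hybridisation controls, transcripts added to every sample, lay between 9.16 and 9.40 in OVA and were 10.75, 9.41, 9.57 and 9.98 in saline. For this reason the counts and most of the genes described are given with all 4 saline arrays and again without saline replicates 1 and 4.

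**Figure D1:**
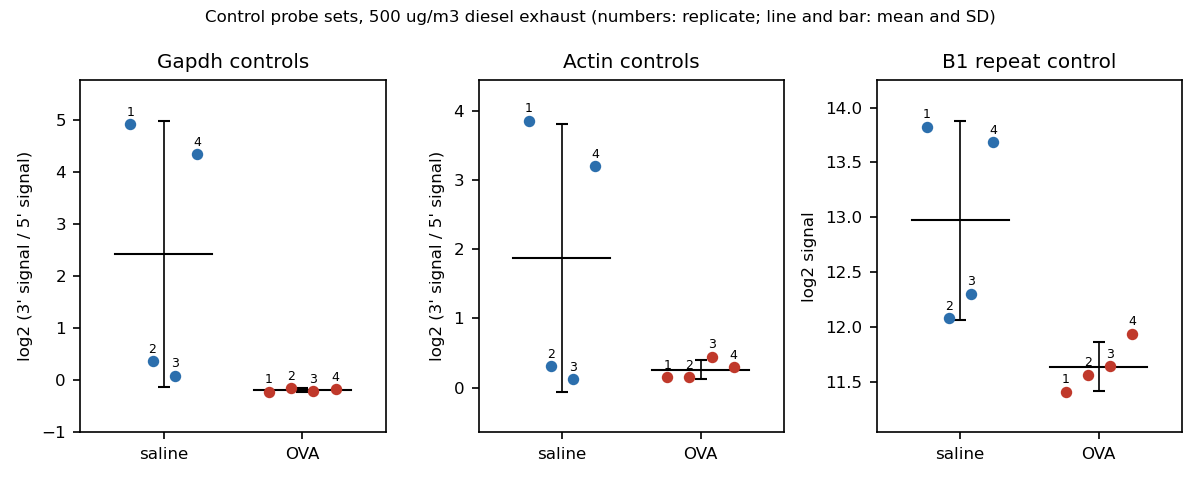
Log2 ratio of 3' to 5' control probe sets of Gapdh (left) and actin (middle), and log2 signal of the B1 repeat control (right), for the 4 saline and 4 OVA arrays at 500 ug/m3 exhaust. Each point is 1 array with its replicate number, the line is the group mean and the bar the SD; saline replicates 1 and 4 lie far above the others for Gapdh (4.91 and 4.34), and in B1 all 4 saline arrays lie above all 4 OVA arrays.

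In the limma fit to all 24 arrays, 1693 of 13575 tested probe sets passed a Benjamini-Hochberg adjusted p of 0.05 and are termed called. This is 12.5% of those tested. Of these, 792 rose with OVA (5.83%) and 901 fell (6.64%). An unadjusted p under 0.05 was reached by 4315 probe sets, against 679 that 5% would make. Fitted to the 8 arrays alone, the same comparison called only 253 probe sets, 48 higher and 205 lower. The 4 OVA and 4 saline values did not overlap for 2094 probe sets (15.4% of those tested), and 1229 of the 1693 were among them. Counted by gene, with each gene represented by its probe set of highest mean signal, 896 of 8315 genes were called (10.8%), 380 higher (4.57%) and 516 lower (6.21%). Probe sets of one gene often disagreed. Of 418 called genes with several tested probe sets, 203 had another probe set of opposite sign, and for 22 of them that other probe set was called as well. Rises and falls of a gene below are those of its probe set of highest mean.

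Without saline replicates 1 and 4 the count fell to 51 probe sets, 9 higher and 42 lower, and 50 of them were also called with all arrays. All 1693 kept their direction in that fit, which shares the remaining arrays with the first. The median size of their differences was 0.79 on the log2 scale with all arrays and 0.45 without replicates 1 and 4, while it was 1.11 without replicates 2 and 3 instead. In that last fit 5436 probe sets were called, 2974 higher and 2462 lower. By gene, 20 falls (0.241% of genes) and 3 rises (0.0361%) were called both with all arrays and without replicates 1 and 4. Adding the 3'/5' ratio to the model left 158 called probe sets, and adding the B1 signal instead left 48. Called in all of these, with every array, without replicates 1 and 4 and with either covariate, were 33 probe sets, 6 higher and 27 lower. As B1 did not overlap between the groups, the fit with B1 cannot separate an effect of OVA from the difference in B1.

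**Figure D2:**
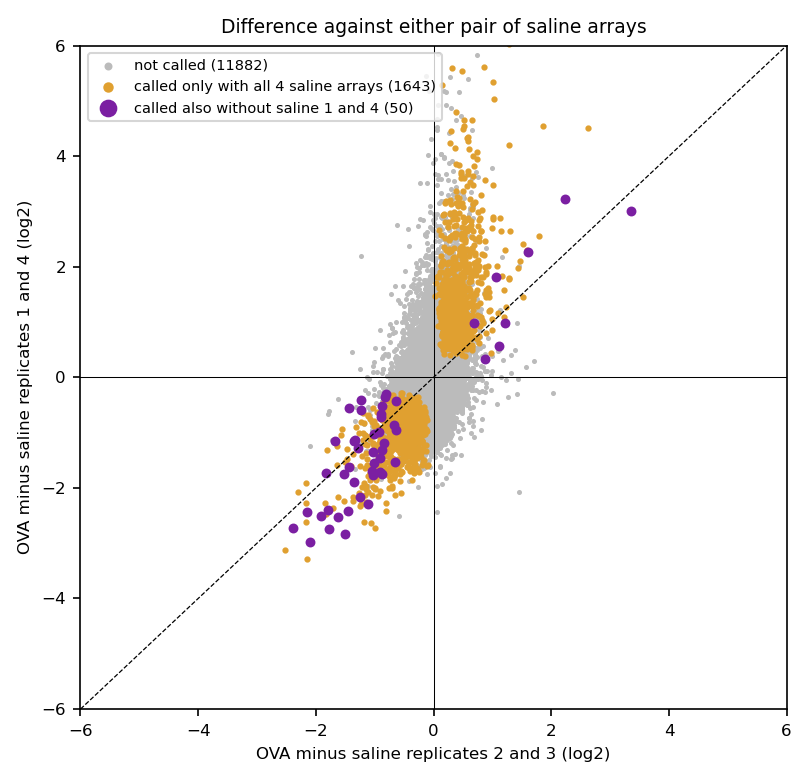
Log2 difference between the OVA mean and saline replicates 2 and 3 (horizontal) or saline replicates 1 and 4 (vertical) for each tested probe set; 7 lie outside the axes, and the dashed line marks equal differences. Grey points are not called. Orange points (1643) are called with all 4 saline arrays but not without saline replicates 1 and 4, which is what the legend wording means. Purple points (50) are called in both fits. Of the 1693 called, 1642 were also called without replicates 2 and 3. The orange points stand steeply above the line on the side of the rises, so those rises were larger against replicates 1 and 4. The choice of orange points favours this, as a small difference against replicates 2 and 3 leaves a probe set uncalled in that fit.

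The rise in Xdh was the largest among called genes whose groups did not overlap. Xdh encodes xanthine dehydrogenase, which carries out the last steps of purine breakdown to uric acid. Its log2 signal was 10.57, 11.08, 8.91 and 9.82 in OVA and 6.93, 7.35, 6.13 and 7.26 in saline. Every OVA array lay above every saline array, and OVA replicate 3 was the lowest of its group. Xdh was 9.03-fold higher with OVA (3.17 ± 0.42 log2, standard error; limma adjusted p = 0.000179), and 3.35 higher without saline replicates 1 and 4 (adjusted p = 0.00678). The effect of OVA on Xdh was 3.09 in filtered air and 3.49 at 2000 ug/m3. Nt5e, the surface enzyme that makes adenosine from AMP upstream in the same pathway, had signals of 8.62, 8.38, 8.90 and 8.66 in OVA and 6.02, 7.79, 8.23 and 5.74 in saline. Its low saline values were those of replicates 1 and 4, and the rise of 1.69 ± 0.50 (adjusted p = 0.0335) was 0.63 without them (adjusted p = 0.794).

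Only Ociad1 and Hsd17b12 joined Xdh among genes called higher in both fits. Ociad1, a protein of endosomes and mitochondria, had signals of 11.05, 10.87, 11.04 and 10.78 in OVA and 9.75, 9.76, 9.69 and 10.18 in saline. The spread within each group was small beside the gap between them, and the rise was 1.09 ± 0.12 (2.13-fold, adjusted p = 2.71e-05), or 1.21 without saline replicates 1 and 4 (adjusted p = 7.51e-05). A further probe set of Ociad1 gave 0.30. Hsd17b12, a reductase of fatty acid elongation, had signals of 10.49, 10.37, 9.94 and 10.07 in OVA and 8.37, 9.38, 8.95 and 8.45 in saline. It rose by 1.43 ± 0.21 (adjusted p = 0.0004), or 1.05 without saline replicates 1 and 4 (adjusted p = 0.041), with a further probe set at 0.69, and with the B1 signal as a covariate the call was lost (adjusted p = 0.0662).

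Most tested long noncoding RNAs of the nucleus fell. Of 7 tested members of this list, 6 had values below 0, 5 were called lower and 0 higher, against 6.21% and 4.57% of all genes, and the median difference was -0.93 against -0.01 over all genes. The summed signal of the members on the array lay between 10484 and 14292 in OVA and between 24214 and 31762 in saline, so the groups were well apart. These are sums of linear signal, and most of each sum came from Malat1 and Neat1, described below. Malat1, an abundant RNA of nuclear speckles, had log2 signals of 11.88, 11.84, 12.06 and 12.13 in OVA and 14.02, 13.70, 13.30 and 13.42 in saline. All 4 saline arrays were above all OVA arrays, and replicates 1 and 4 were not set apart from 2 and 3. Malat1 fell 3.10-fold (-1.63 ± 0.26, adjusted p = 0.000824), and by 1.52 without saline replicates 1 and 4 (adjusted p = 0.0335). Its other probe sets gave -2.06, -0.47, -2.39 and -2.54, all in the same direction.

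Neat1, the scaffold RNA of paraspeckles, was nearly the same on all 4 saline arrays. Its signals were 11.99, 11.96, 12.27 and 12.74 in OVA and 13.29, 13.24, 13.28 and 13.23 in saline. It fell by 1.02 ± 0.16 (adjusted p = 0.000686), and the value without saline replicates 1 and 4 was -1.02 as well (adjusted p = 0.0235). Airn, the imprinted antisense transcript of the Igf2r locus, had signals of 7.19, 6.72, 7.49 and 7.43 in OVA and 8.34, 8.48, 8.51 and 8.64 in saline, again without overlap. It fell by 1.29 ± 0.21 (adjusted p = 0.000847), and by the same amount without saline replicates 1 and 4 (adjusted p = 0.0298). The imprinted RNA Meg3 behaved differently across the saline arrays, with 8.79, 8.82, 9.01 and 9.29 in OVA and 10.33, 9.47, 9.51 and 10.30 in saline. Its difference of -0.93 ± 0.21 (adjusted p = 0.00979) was -0.52 without replicates 1 and 4 (adjusted p = 0.439). The fifth called member was Gas5, a host gene of small nucleolar RNAs. Without saline replicates 1 and 4, 3 of the 7 members were called lower. The B1 signal was lower in OVA as well. With B1 as a covariate Malat1 gave -1.53 (adjusted p = 0.0444), Neat1 -1.02 (adjusted p = 0.0255) and Airn -1.44 (adjusted p = 0.0192). As B1 did not overlap between the groups, this fit cannot separate these falls from the difference in B1.

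Among genes for splicing factors and other nuclear RNA-binding proteins, more members fell than rose, and most did not pass. Of 53 tested, 35 had values below 0 and 18 above, with a median of -0.30. Called lower were 11 (20.8%, against 6.21% of all genes), and 2 were called higher (3.77%, against 4.57%). Without saline replicates 1 and 4 there were 3 called lower, 0 higher and a median of -0.19. Rbm25, a regulator of splice site choice, had signals of 9.52, 9.19, 9.15 and 9.27 in OVA and 10.98, 10.37, 10.23 and 10.68 in saline. The groups were separate, and the fall of 1.28 ± 0.17 (adjusted p = 0.000161) was 1.01 without saline replicates 1 and 4 (adjusted p = 0.0135), while a further probe set gave -0.20. Son, a scaffold protein of nuclear speckles, fell by 1.31 ± 0.20 (adjusted p = 0.000547), or by 0.91 without those arrays (adjusted p = 0.0466), but its other 5 probe sets ranged from -0.45 to 1.19. Rbm39 was called in both fits with overlapping groups, at -0.91 ± 0.23 (adjusted p = 0.0178) and -1.23 (adjusted p = 0.0466), and its other probe sets disagreed in sign. Rbm5, a regulator of apoptotic splicing, gave -0.55 ± 0.11 (adjusted p = 0.00379) and -0.42 without saline replicates 1 and 4 (adjusted p = 0.153). Its other probe sets gave -2.08, -1.93 and 1.09, and the former pair stayed called without those arrays, at -1.63 and -1.45. The called rises were Prpf8, a core spliceosome protein, and Ptbp1, a splicing repressor. Ptbp1 had signals of 11.31, 11.47, 11.52 and 11.36 in OVA and 9.40, 11.18, 10.33 and 8.91 in saline, so saline replicate 2 nearly reached the OVA arrays. Its rise of 1.46 ± 0.30 (adjusted p = 0.00515) was 0.66 without saline replicates 1 and 4 (adjusted p = 0.266).

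Chromatin regulators were called lower in 9 of 32 tested genes and higher in 0 (28.1% lower, against 6.21% of all genes, median -0.20). Without saline replicates 1 and 4, 2 were called lower (median -0.35). Zeb2, a zinc finger repressor of epithelial genes, had signals of 9.13, 9.32, 8.73 and 9.19 in OVA and 11.35, 10.32, 10.09 and 11.41 in saline. Saline replicates 1 and 4 were highest, but replicates 2 and 3 still lay above every OVA array. It fell by 1.70 ± 0.23 (adjusted p = 0.000185), and by 1.11 without saline replicates 1 and 4 (adjusted p = 0.00722). Kmt2a, a histone methyltransferase, was the other member called in both fits, at -0.59 and -0.82. The histone demethylase Kdm6a fell by 1.02 ± 0.18 (adjusted p = 0.00185) and gave -0.55 without the 2 saline arrays (adjusted p = 0.124), and its other probe set gave 0.38. The bromodomain protein Brd2, which binds acetylated histones, fell by 1.42 ± 0.26 (adjusted p = 0.00221) and gave -0.98 (adjusted p = 0.15), with another probe set at -0.13, and the remodelling factor Bptf fell by 0.76 ± 0.16 (adjusted p = 0.00515) and gave -0.47 (adjusted p = 0.281).

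**Figure D3:**
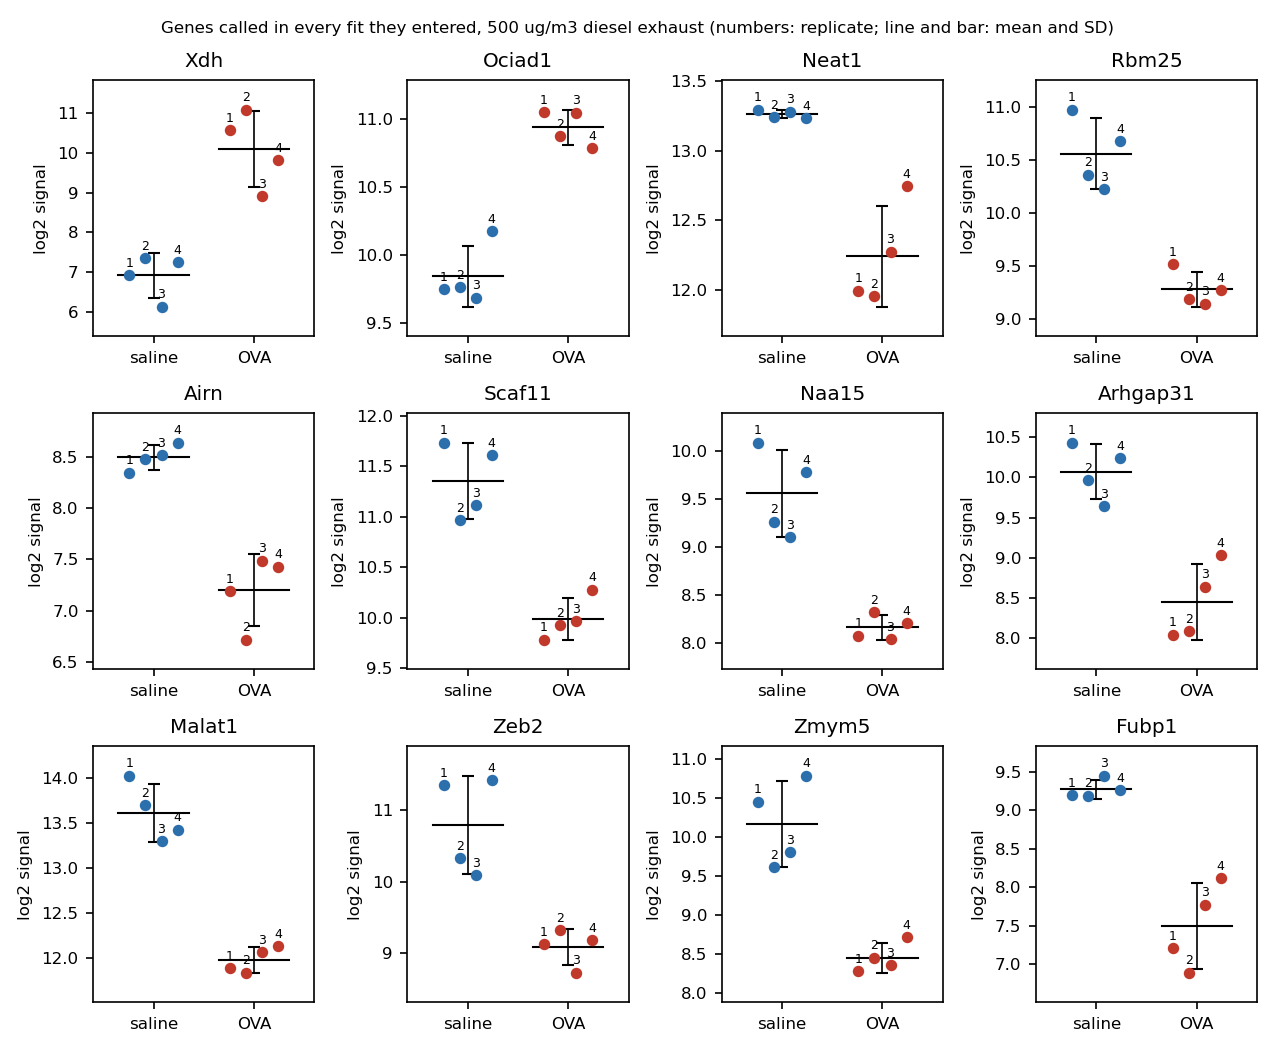
Log2 signal on each of the 8 arrays for the 12 named genes that were called in every fit they entered; points are arrays with their replicate number, lines are group means and bars the SD. Xdh and Ociad1 are higher in OVA and the other 10 are lower, and in none of the panels do the groups overlap.

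The remaining genes that kept their call in every fit they entered were also falls. Scaf11, a splicing-related protein, had signals of 9.78, 9.93, 9.97 and 10.28 in OVA and 11.74, 10.96, 11.11 and 11.61 in saline, and fell by 1.37 ± 0.16 (adjusted p = 7.32e-05), or by 1.05 without saline replicates 1 and 4 (adjusted p = 0.00678). Fubp1, a protein that binds single-stranded DNA upstream of Myc, had 7.21, 6.89, 7.77 and 8.12 in OVA and 9.19, 9.19, 9.45 and 9.26 in saline. Its fall of 1.78 ± 0.28 (adjusted p = 0.000824) was 1.82 without saline replicates 1 and 4 (adjusted p = 0.0248). Zmym5, a zinc finger protein, fell by 1.71 ± 0.23 (adjusted p = 0.000179), and Naa15, a subunit of the complex that acetylates nascent proteins, by 1.40 ± 0.19 (adjusted p = 0.000224). Arhgap31, which switches off the small GTPases Rac and Cdc42, fell by 1.62 ± 0.23 (adjusted p = 0.000311), while another of its probe sets gave 0.64. Further probe sets of the others were near 0 and not called, between -0.17 and 0.26 for Scaf11, between -0.24 and 0.08 for Naa15 and at 0.08 for Fubp1. Without saline replicates 1 and 4, Zmym5, Naa15 and Arhgap31 gave -1.25, -1.02 and -1.35 in turn. Ago2, which holds the guide RNA in silencing complexes, fell by 1.23 ± 0.21 (adjusted p = 0.00113) and by 1.33 without those arrays (adjusted p = 0.0235), and it lost its call with the B1 signal as a covariate (adjusted p = 0.0762). Signalling genes among the falls called in both fits were Notch1, Stat3 and Il18r1, a receptor chain for interleukin-18.

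Among the 12 largest rises with separate groups, Xdh alone was called without saline replicates 1 and 4. Snrpd3, a core protein of spliceosomal particles, had signals of 9.67, 9.83, 9.05 and 8.39 in OVA and 6.52, 7.08, 7.81 and 6.83 in saline. Saline replicates 1 and 4 were the lowest, and the rise of 2.17 ± 0.43 (adjusted p = 0.00382) was 1.79 without them (adjusted p = 0.15) and 2.56 without replicates 2 and 3, while another of its probe sets gave -0.43. Lrp4, a receptor that modulates Wnt signalling, rose by 1.78 ± 0.32 (adjusted p = 0.00208) and gave 1.46 (adjusted p = 0.101). Rraga, a GTPase that signals amino acids to mTOR, rose by 1.75 ± 0.29 (adjusted p = 0.00111) and gave 1.21 (adjusted p = 0.0931). The RNA-binding protein Raly, the membrane-shaping ATPase Ehd2, the exchange factor Net1 and Tmcc3 rose by between 1.66 and 1.96 and gave 1.52, 1.01, 0.60 and 0.36. Tmcc3 had 10.03, 10.05, 10.03 and 10.13 in OVA and 7.29, 9.69, 9.72 and 6.85 in saline, so here the rise lay almost wholly in saline replicates 1 and 4.

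Among the 12 largest falls with separate groups, 5 were called without saline replicates 1 and 4, namely Fubp1, Zmym5, Zeb2, Malat1 and Arhgap31. Atp6v1c2, a subunit of the vacuolar proton pump, had signals of 7.78, 6.53, 6.72 and 5.22 in OVA and 9.14, 8.01, 8.05 and 8.81 in saline. It had the largest fall, 1.94 ± 0.39 (adjusted p = 0.0041), and gave -1.47 without saline replicates 1 and 4 (adjusted p = 0.2). The zinc finger repressor Zbtb20 fell by 1.85 ± 0.33 (adjusted p = 0.00194) and gave -1.06, and its other probe sets gave -0.52 and -2.04. Acvr2b, a receptor for activins, fell by 1.70 ± 0.29 (adjusted p = 0.00129) and gave -1.14 (adjusted p = 0.124). Elf2, an ETS factor, Brwd1, a bromodomain protein, Sntb2, a syntrophin of the dystrophin complex, and Zc3h3, a zinc finger protein, had called differences between -1.80 and -1.56 and gave -1.26, -1.37, -1.04 and -1.81. A second probe set of Elf2 was called in the opposite direction, at 1.06 (adjusted p = 0.00653). Unlike Elf2, Brwd1 and Sntb2, Zc3h3 was lower still against saline replicates 2 and 3, although its 4 OVA values were spread from 5.38 to 7.57 (adjusted p = 0.224).

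**Figure D4:**
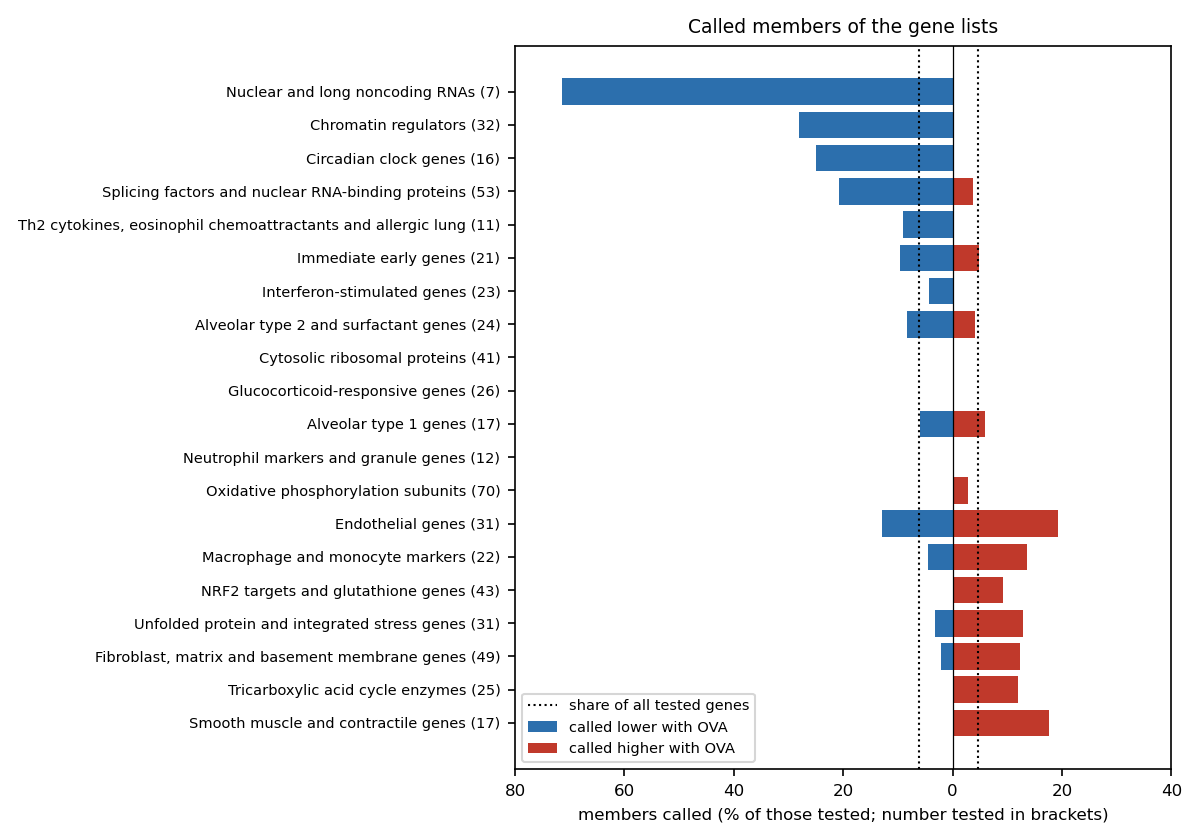
Share of the tested members of 20 gene lists called lower (blue, to the left) or higher (red, to the right) with OVA at 500 ug/m3, with the number tested in brackets; dotted lines mark the shares of all tested genes, 6.21% lower and 4.57% higher. Nuclear noncoding RNAs, chromatin regulators, clock genes and splicing factors lie furthest to the left.

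Few genes of the allergic response could be tested, and their calls were near the shares of all genes. Of 34 on the array, 11 were tested (median 0.08). Called higher were 0, against 4.57% of all genes, and 1, Retnla, was called lower (9.09%, against 6.21% of all genes). Of the 23 below the limit for testing, 0 were called when the limit was removed. Il4, Il5, Il13, the eosinophil chemoattractant Ccl11, Muc5ac and Clca1 were among these 23, as weak signals in both groups. The log2 signal of Chil3 was 11.45, 11.86, 11.87 and 11.68 in OVA and 11.67, 11.33, 11.47 and 12.03 in saline, so the groups overlapped fully, with a difference of 0.09 ± 0.16 (adjusted p = 0.74). Chia1, the acidic chitinase, gave -0.02 ± 0.14, the mucin Muc5b -0.09 ± 0.26, and the chemokines Ccl8 and Ccl17 0.08 ± 0.15 and 0.09 ± 0.25. Retnla, a resistin-like protein of airway epithelium and macrophages, had signals of 9.91, 10.79, 10.74 and 10.02 in OVA and 11.08, 10.89, 10.92 and 11.26 in saline. Its fall of 0.67 ± 0.21 (adjusted p = 0.0411) was 0.54 without saline replicates 1 and 4 (adjusted p = 0.537). The receptor chains Il4ra and Il13ra1 gave 0.21 ± 0.14 and 0.41 ± 0.22 and were not called. A further probe set of each gave 2.68 ± 0.99 and 2.59 ± 0.89 and was not called either (adjusted p = 0.0727 and 0.057). Without saline replicates 1 and 4 these further probe sets gave 0.18 and 0.30. The alarmin Il33 gave -0.21 ± 0.15.

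Eosinophil, mast cell, neutrophil and lymphocyte markers gave 0 calls, and macrophage markers gave some. These lists are short, and 10.8% of all genes were called in either direction. Of 4 tested eosinophil and mast cell markers, 0 were called, and the eosinophil granule genes Epx and Prg2 were below the limit for testing. Epx had log2 signals between 5.77 and 6.37 in OVA and between 4.08 and 6.68 in saline. Of 12 tested neutrophil markers, 0 were called. Among them, Lcn2, which withholds iron from bacteria, gave 0.34 ± 0.18 and the calprotectin subunit S100a9 -0.64 ± 0.32. Of 22 macrophage and monocyte markers, 3 were called higher (13.6%, against 4.57% of all genes) and 1 lower (4.55%, against 6.21%). The rises were Cd68, a lysosomal glycoprotein (0.82 ± 0.24, adjusted p = 0.0305), Cybb, the catalytic subunit of the phagocyte oxidase (1.36 ± 0.39, adjusted p = 0.03), and Mpeg1, a pore-forming protein (0.66 ± 0.20, adjusted p = 0.0333). Without saline replicates 1 and 4 they gave 0.25, 0.45 and 0.43, and none was called (adjusted p from 0.611 to 0.802). The fall was C1qb, a complement chain (-0.58 ± 0.18, adjusted p = 0.0402), whose groups overlapped, which gave -0.45 without saline replicates 1 and 4 and 0.78 by another probe set. The B cell and plasma cell list had 0 of 12 called and the T and NK cell list 0 of 14. The immunoglobulin chain Ighm ranged from 9.12 to 11.20 in OVA and from 9.94 to 10.86 in saline.

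Genes of structural cells gave rises that depended on saline replicates 1 and 4. Over all genes, 4.57% were called higher and 6.21% lower. Smooth muscle and contractile genes had 3 of 17 called higher (17.6%) and 0 lower, with a median of 0.36 that was 0.03 without those arrays. Itga8, an integrin chain of mesenchymal and smooth muscle cells, had signals of 10.83, 10.72, 11.42 and 11.38 in OVA and 6.54, 10.33, 10.68 and 6.95 in saline. Replicates 2 and 3 were near the OVA arrays, and the rise of 2.46 ± 0.81 (adjusted p = 0.0478) was 0.58 without replicates 1 and 4 (adjusted p = 0.901) and -0.47 with the B1 signal as a covariate. Foxf1, a transcription factor of lung mesenchyme, showed the same pattern, with 10.27, 10.35, 10.48 and 10.42 in OVA and 7.11, 9.26, 10.16 and 7.37 in saline (1.90 ± 0.52, adjusted p = 0.0232, and 0.66 without replicates 1 and 4). The actin-binding Tpm1 and the Z-disc protein Pdlim3 rose by 1.01 ± 0.29 and 0.98 ± 0.31 and gave 0.43 and 0.34 without them. Fibroblast and matrix genes had 6 of 49 called higher (12.2%) and 1 lower (2.04%). Among the rises were the collagen crosslinker Lox (1.04 ± 0.27, adjusted p = 0.0194), the proteoglycan Lum (0.90 ± 0.21, adjusted p = 0.0116) and the collagen chaperone Serpinh1 (0.87 ± 0.22, adjusted p = 0.0179). The lower one was Timp2, a metalloproteinase inhibitor (-0.56 ± 0.14, adjusted p = 0.0138), whose other 4 probe sets were all above 0, between 0.14 and 2.09, and not called. Lox, Lum, Serpinh1 and Timp2 gave 0.45, 0.53, 0.34 and -0.42 without saline replicates 1 and 4.

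Endothelial genes had 6 of 31 called higher (19.4%, against 4.57% of all genes) and 4 lower (12.9%, against 6.21%), so the list moved both ways (median 0.06). Eng, a TGF-beta coreceptor, rose by 0.74 ± 0.18 (adjusted p = 0.0145), and the VEGF receptor Kdr and the phosphatase Ptprb fell by 0.57 ± 0.13 (adjusted p = 0.00882) and 0.72 ± 0.14 (adjusted p = 0.00394). These 3 gave 0.45, -0.36 and -0.44 without saline replicates 1 and 4, and another probe set of Eng gave -0.37. Type IV collagen of the alveolar basement membrane also moved both ways, although its chains assemble into one trimer. Col4a3 was 9.93, 10.20, 10.56 and 10.65 in OVA and 7.82, 9.85, 10.13 and 7.38 in saline (1.54 ± 0.48, adjusted p = 0.0389), and Col4a4 was 7.97, 8.06, 8.12 and 8.78 in OVA and 9.55, 8.78, 9.07 and 9.46 in saline (-0.98 ± 0.21, adjusted p = 0.00743). The 2 differences were 0.35 and -0.69 without saline replicates 1 and 4, and neither was called. Alveolar type 2 genes had 1 of 24 called higher (4.17%), Etv5, and 2 lower (8.33%), Hmgcs1 and Lpcat1, which is near the shares of all genes. Etv5, a factor that maintains these cells, rose by 1.90 ± 0.46 (adjusted p = 0.0136) and gave 1.15 without saline replicates 1 and 4 (adjusted p = 0.467). The surfactant proteins Sftpc and Sftpb were not called, at -0.24 ± 0.15 and 0.32 ± 0.12, nor was Scgb1a1 at -0.26 ± 0.16. Without saline replicates 1 and 4, 0 members of the smooth muscle, fibroblast, endothelial and alveolar lists were called. In that fit 0.0361% of all genes were called higher and 0.241% lower, so 0 calls is near those shares.

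In 4 lists of stress and metabolic genes the calls with all arrays were mostly rises. None of their members was called without saline replicates 1 and 4, where 0.0361% of all genes were called higher and 0.241% lower. Unfolded protein and integrated stress genes had 4 of 31 called higher (12.9%, against 4.57% of all genes) and 1 lower (3.23%, against 6.21%). Pdia4, a disulfide isomerase of the endoplasmic reticulum, rose by 1.31 ± 0.29 (adjusted p = 0.00848) and gave 0.80 without those arrays (adjusted p = 0.349). Atf4, the effector of the integrated stress response, fell by 0.59 ± 0.16 (adjusted p = 0.0189) and gave -0.34 without them. Tricarboxylic acid cycle enzymes had 3 of 25 called higher, led by Idh3a, a subunit of isocitrate dehydrogenase, whose signals were 10.26, 10.20, 10.19 and 10.23 in OVA and 8.66, 9.80, 9.76 and 8.63 in saline (1.01 ± 0.22, adjusted p = 0.00681, and 0.44 without replicates 1 and 4). NRF2 targets, the genes of the oxidant response, had 4 of 43 called higher (9.30%), although 22 had values below 0 (median -0.01). The malic enzyme Me1, among those called, is also counted in the cycle list. Called as well were the ferritin chain Fth1 (0.59 ± 0.18, adjusted p = 0.0389) and the glutathione transferase Gstm1 (0.36 ± 0.11, adjusted p = 0.0378), which gave 0.19 and 0.12 without saline replicates 1 and 4. The heme oxygenase Hmox1 gave 0.44 ± 0.47, and the exhaust-responsive P450 genes Cyp1a1 and Cyp1b1 gave 0.58 ± 0.28 and 0.20 ± 0.20, none of them called. Oxidative phosphorylation had 2 of 70 called higher, the ATP synthase subunits Atp5b and Atp5g2, a share of 2.86% that is below that of all genes, and 46 of the 70 had values below 0 (median -0.08). Cytosolic ribosomal proteins had 0 of 41 called, against 10.8% of all genes in either direction. Their median of -0.19 was 0.08 without saline replicates 1 and 4 and -0.52 without replicates 2 and 3. Interferon-stimulated genes had 0 of 23 called higher, against 4.57% of all genes. Among them 1 was called lower (4.35%, against 6.21%), the RNA-sensing kinase Eif2ak2. Glucocorticoid-responsive genes had 0 of 26 called, against 10.8% of all genes in either direction.

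Clock genes were called lower in 4 of 16 tested and higher in 0 (25.0% lower, against 6.21% of all genes, median -0.17). Without saline replicates 1 and 4, 0 were called (median -0.25), where 0.0361% of all genes were called higher and 0.241% lower. Hlf, a clock output factor, was 9.04, 9.01, 8.90 and 9.04 in OVA and 10.56, 9.78, 9.75 and 10.87 in saline. The groups were separate, and the fall of 1.25 ± 0.20 (adjusted p = 0.000854) was 0.77 without saline replicates 1 and 4 (adjusted p = 0.0705), with another probe set at 0.12. The period gene Per3 had 9.31, 9.23, 9.07 and 9.12 in OVA and 9.83, 10.11, 9.93 and 9.84 in saline, with saline replicates 1 and 4 the closest to OVA, and fell by 0.74 ± 0.17 (adjusted p = 0.0096), against -0.84 without them (adjusted p = 0.0931), while its other probe set gave 0.30. The output factor Tef fell by 0.32 ± 0.10 (adjusted p = 0.0444) and gave -0.27 without those arrays (adjusted p = 0.492). Its other probe sets were called in opposite directions, at -1.31 and 1.94. The kinase Csnk1d fell by 0.49 ± 0.16 (adjusted p = 0.0469) and gave -0.19 (adjusted p = 0.811), with other probe sets between -0.38 and 1.07. The sources used here do not give the time of day of sampling. Of the immediate early genes, 1 of 21 was called higher (4.76%, against 4.57% of all genes), the small GTPase Rhob (0.57 ± 0.18, adjusted p = 0.046). Called lower were 2 (9.52%, against 6.21%), Jund (-0.87 ± 0.15, adjusted p = 0.00129) and Egr1 (-0.57 ± 0.16, adjusted p = 0.0254). Rhob, Jund and Egr1 gave 0.65, -0.68 and -0.38 without saline replicates 1 and 4, and none was called.

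The summed signal of 6 of the 40 gene lists separated the groups. These were nuclear noncoding RNAs, splicing factors, chromatin regulators, clock genes, fat tissue genes and mesothelial genes. Among single tested probe sets, 15.4% had groups that did not overlap, so 6 of 40 lists is near that share. The summed signal of 13 fat tissue genes was 6069, 5691, 5700 and 15896 in OVA and 5592, 5676, 5390 and 5674 in saline. OVA replicate 4 was far above all others, and the other OVA arrays lay just above the saline range. The fat hormone Adipoq ranged from 8.14 to 10.37 in OVA and from 7.61 to 7.89 in saline, and 0 of 7 tested fat genes were called. The summed signal of mesothelial genes lay between 11157 and 11804 in OVA and between 12485 and 15360 in saline. Of 9 tested, 1 was called, the binding protein Igfbp5, which was lower (11.1%, against 6.21% of all genes). The part of these tissues in the gene results was not tested.

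The effect of OVA at 500 ug/m3 was set beside its effect in filtered air and at 2000 ug/m3, which rest on other arrays. Of the 1693 called probe sets at 500 ug/m3, 1657 (97.9%) had the same direction in air, against 79.9% of all tested, and 1669 (98.6%) at 2000 ug/m3, against 76.6%. In air 2004 were called (14.8%, with 7.62% higher and 7.14% lower), of which 907 were shared, making 53.6% of the calls at 500 ug/m3 and 45.3% of those in air. At 2000 ug/m3 2454 were called (18.1%, with 7.68% higher and 10.4% lower), of which 1020 were shared, making 60.2% of the one and 41.6% of the other. The Gapdh 3'/5' ratio separated the groups there as well in air, where it lay between -0.44 and 0.19 with OVA and between 0.79 and 3.05 with saline. At 2000 ug/m3 it lay between -0.49 and 2.09 with OVA and between 1.64 and 2.44 with saline. The B1 signal separated OVA from saline at both, between 11.31 and 11.93 against 12.49 to 13.35 in air and between 10.85 and 12.43 against 12.95 to 13.31 at 2000 ug/m3. The part of the ratio and of B1 in the shared direction was not tested. The difference between effects was tested as an interaction, and 0 probe sets were called (0.0%) against either exposure in limma, with 419 at an unadjusted p under 0.05 against air and 655 against 2000 ug/m3.

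The genes with the smallest interaction p against air were Tmod3, Eif2ak2, Alcam, Nectin3 and Hdhd3, all at adjusted p = 0.9996. Tmod3, which caps actin filaments, fell with OVA at 500 ug/m3 by 0.91 ± 0.20 and gave 0.30 ± 0.20 in air. Its other probe sets went the other way at 500 ug/m3, at 1.56 (called, adjusted p = 0.0208) and 0.86. Eif2ak2 fell by 0.93 ± 0.23 and gave 0.35 ± 0.23 in air, but its value at 2000 ug/m3 was again -0.93. The adhesion molecule Nectin3 fell by 0.63 ± 0.11 and gave -0.08 ± 0.11 in air, with other probe sets at 500 ug/m3 between -0.74 and 0.39. Tmod3, Eif2ak2 and Nectin3 gave -0.61, -0.64 and -0.52 without saline replicates 1 and 4, and none was called. Hdhd3, a phosphatase-like protein, had signals of 8.16, 8.14, 8.10 and 7.92 in OVA and 7.25, 6.91, 7.27 and 7.22 in saline. It rose by 0.92 ± 0.20 (adjusted p = 0.00748), gave 0.99 without saline replicates 1 and 4 (adjusted p = 0.0946), and gave -0.09 in air and 0.11 at 2000 ug/m3. Against 2000 ug/m3 the smallest p belonged to Fignl1, Per1, Ap3m1, Lama5 and Asxl1, none of which was called at 500 ug/m3.

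**Figure D5:**
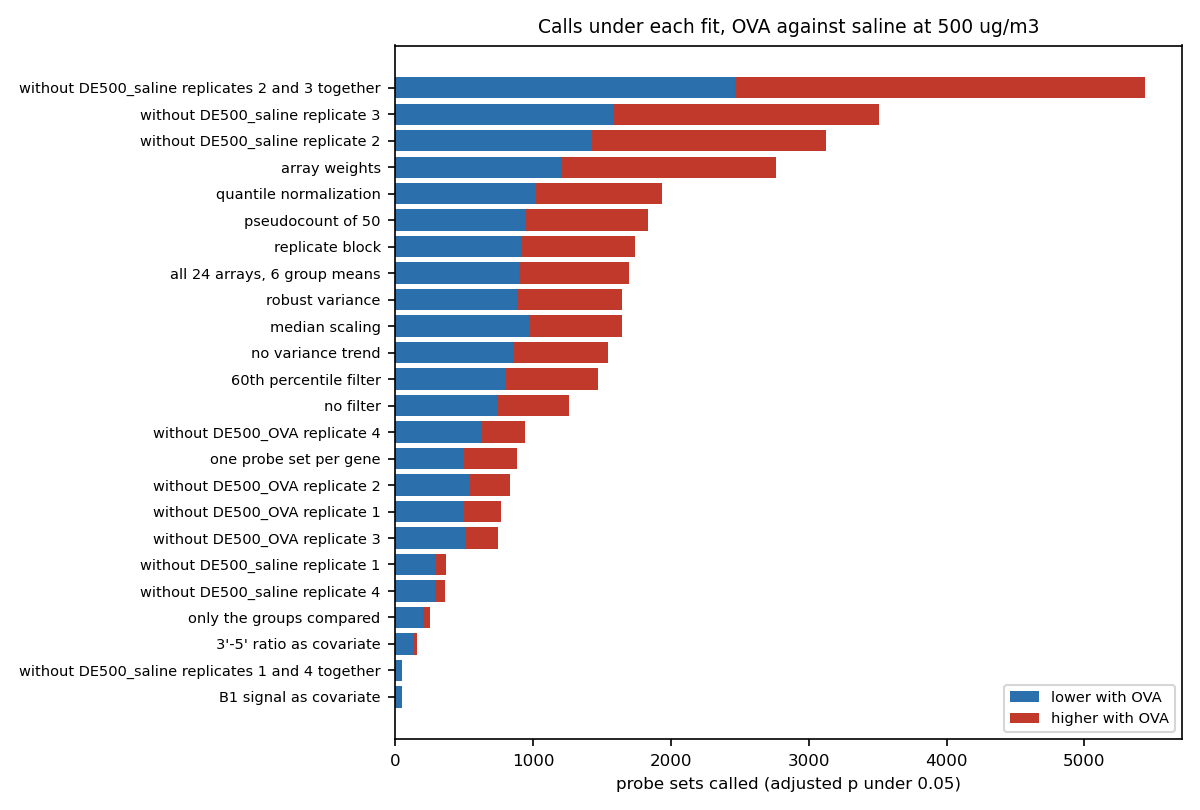
Number of probe sets called lower (blue) and higher (red) with OVA at 500 ug/m3 under each fit; bars start at 0, and DE500 in the labels denotes the 2 groups at 500 ug/m3. Counts run from 48 with the B1 signal as a covariate to 5436 without saline replicates 2 and 3, and the 4 shortest bars hold mostly falls.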

How the data were processed

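Lung RNA was measured on 24 Affymetrix arrays in 6 groups of 4, labelled from 2 ug of total RNA per the labels' protocols. The deposited values are 1 linear signal intensity per probe set and array, computed by the authors with MAS5, per the submitters' processing notes. No MAS5 version is named in the sources used here. Trimmed means of all arrays lay at 500.1 to 500.2, so arrays were already scaled, which fixes the total and makes every difference relative to the other probe sets. Intensities were taken to log2 without a pseudocount, and 64 control probe sets were set aside. Testing was limited to probe sets whose mean lay above the 40th percentile over the 24 arrays (geometric mean signal 138), leaving 13575 of 22626, of which 12488 name 1 gene by the platform annotation. A model with 6 group means was fitted to the 24 arrays with limma 3.58.1 in R 4.3.3 (eBayes with trend, two-sided, Benjamini-Hochberg over all tested probe sets). Standard errors come from that fit. Array checks used exact permutation tests (scipy 1.17.1), and the fit was run on simulated data. Those data had independent normal noise with the same spread per probe set in every group. They lack the split among the saline arrays at 500 ug/m3, so they cannot show how the fit deals with it.

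Named genes are represented by their probe set of highest mean. They are up to 12 rises and 12 falls of largest size among called genes with non-overlapping groups; up to 12 of each among those also called without saline replicates 1 and 4; up to 4 members of smallest p per described list; a fixed set of allergy, exhaust and lung genes; and 5 genes of smallest p per interaction. Members of short counts, other genes called in both fits and marker genes are named beyond it, having been chosen after their values were seen. Of 40 gene lists, 20 are described. The members and lists were chosen with earlier results of these data known, so no list is independent support. Alternatives were other scalings, filters, a pseudocount of 50, array weights, variance settings, 1 probe set per gene, the 2 groups alone, covariates, the replicate number as a block, and arrays left out.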

Additional observations from a re-analysis of the deposited data

Results flagged for a closer look

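In 258 groups of 4 values, made of the named genes and array checks in either group, 3 had an array apart from the others by Dixon's test, which compares the gap with the range. Chance flags about 1 in 20 such groups. Saline replicate 4 gave 10.18 for Ociad1, where the other saline arrays lay between 9.69 and 9.76. Saline replicate 2 gave 6.91 for Hdhd3, where the others lay between 7.22 and 7.27. Saline replicate 2 also gave 8.78 for Pdk4, a kinase that restrains pyruvate oxidation, where the others lay between 8.01 and 8.13.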

How the results depend on the processing

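The count of called probe sets for OVA against saline at 500 ug/m3 (1693) depended on the saline arrays. Leaving out 1 array gave from 361 to 3508: 367 without saline replicate 1, 3128 without 2, 3508 without 3, 361 without 4, and 765, 834, 747 and 943 without OVA replicates 1 to 4. Dropping saline replicates 1 and 4 together gave 51, dropping 2 and 3 gave 5436, the 3'/5' covariate 158, the B1 covariate 48, array weights 2766, only the groups compared 253 and 1 probe set per gene, which tests fewer probe sets, 883. Rises made up 46.8% of calls, and 14.6% with the 3'/5' covariate. Quantile normalization (1939), median scaling (1647), no filter (1262), the stricter filter (1473), the pseudocount (1831), no trend (1541) and robust variance (1647) stayed within 1.5 times. The replicate block gave 1739 calls, 1579 of them shared, and same-numbered arrays of the 2 groups correlated at 0.13, -0.14, 0.16 and -0.09 in their deviations, so the numbers were not used as pairs. Against air the interaction count of 0 was 1 without saline replicates 1 and 4 and 183 without 2 and 3. Against 2000 ug/m3 it was 3 with the 3'/5' covariate, 56 with the B1 covariate, 2 without saline replicates 1 and 4 and 293 without 2 and 3. Leaving out 1 array, the Gapdh difference ran from -3.40 to -1.79 and the B1 difference from -1.63 to -1.05, where 3 arrays against 4 cannot pass the threshold. Of 82 called named genes, 12 kept their call wherever they were tested. With the B1 covariate 7 turned direction: Col4a3 (-0.13), Csnk1d (0.0001), Herpud1 (-0.11), Itga8 (-0.47), Me1 (-0.008), Sqstm1 (-0.021) and Tmcc3 (-0.14). The causes were not tested.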
